A study of Mus musculus with 6 samples.

Results

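The genes described here move iron through the cells of the gut lining: Cybrd1, Slc11a2, Slc40a1, Heph, Tfrc, Fth1, Ftl1 and Hmox1. They were read in colon epithelium of mice labelled with the genotype vil-Cre-Bcl9-/-/Bcl9l-/- and in colon epithelium of wildtype mice. That label names the loss of both Bcl9 and Bcl9l, which encode co-activators that bind beta-catenin in the Wnt pathway. The villin promoter (vil) directs the Cre recombinase to the intestinal epithelium. Every probe set (a group of short probes on the array) whose platform annotation gives exactly 1 gene symbol, and that symbol one of the 8, was taken, which gave 18 of the 45101 probe sets on the Affymetrix Mouse Genome 430 2.0 array. They cover 7 of the 8 genes: 6 probe sets for Tfrc, 4 for Slc11a2, 2 each for Cybrd1, Slc40a1 and Fth1, and 1 each for Heph and Hmox1. Ftl1 has none, because the 3 probe sets that carry its symbol carry other symbols too.

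There were 3 knockout arrays (knockout 1, 2 and 3, from pools of 3, 2 and 2 mice) and 3 wild-type arrays (wild type 4, 5 and 6, from pools of 3 mice each). All mice were 12 weeks old and of a mixed 129SvEv/C57BL/6/DBA/2 background. The epithelium was loosened with EDTA and shaken off the muscle without a cell sort. The labels name Cre for the knockouts and not for the wild type, so Cre and the loss of the co-activators cannot be told apart. In such bulk samples, fewer cells of a type and less RNA per cell cannot be told apart either.

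The targeted genes were not lower in the arrays labelled knockout. Bcl9 read 7.09, 7.16 and 7.58 (log2 expression) in knockout 1, 2 and 3, against 7.42, 6.85 and 7.24 in wild type 4, 5 and 6. Bcl9l read 8.08, 8.27 and 8.11 in the knockouts, against 7.84, 7.76 and 8.21 in wild type. The groups overlap for both, with differences, knockout minus wild type, of 0.11 (SE 0.20) and 0.22 (SE 0.15). Where these probe sets lie relative to the deleted parts was not analysed here, so the readings do not check the labels, and knockout stands for the genotype as labelled throughout. Lists of markers of other cells were lower in the knockouts on balance, with 0 passing, where 52.2% of all genes lay above 0. For T cell and intraepithelial lymphocyte markers, 16 of 16 measured lay below 0 (median -0.54). So did 13 of 15 fibroblast markers (median -0.35) and 13 of 14 B and plasma cell markers (median -0.81). The macrophage and dendritic cell list was more even, with 7 above 0 and 11 below (median -0.12). The fibroblast list was highest in wild type 6, at a median log2 deviation from each gene's mean of 0.63. Wild type 4 and 5 (-0.04 and -0.08) lay within the knockout range of -0.44 to -0.03. The part of these other cells in the iron gene readings was not tested.

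In the textbook scheme, worked out mainly in the duodenum, ferric iron is reduced at the apical membrane, enters through DMT1, and is then either stored in ferritin or passed to the blood through ferroportin with the help of a ferroxidase. Most other cells, and dividing crypt cells from their basal side, take up iron bound to transferrin through the transferrin receptor. Iron regulatory proteins bind hairpins in these messengers: they stabilise the Tfrc messenger and block translation of the ferritin messengers, so ferritin protein can change while its messenger, which is what an array reads, does not. Heme oxygenase 1 frees iron from heme.

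Reference promoter windows are printed for Tfrc, whose probe sets were all highest in the same array, and for Fth1 and Cybrd1, a storage gene and the reduction gene, so that reference sequence stands beside members of different roles. They are RefSeq windows of build GRCm38.p6, from 250 bases before to 50 after an annotated start, on the plus strand, and windows were found for 4 of the 8 genes. Capitals mark ACGTG or GCGTG on either strand, the core of the hypoxia response element. The window of Tfrc is chr16:32608646-32608945, that of Fth1 is chr19:9982396-9982695 and that of Cybrd1 is chr2:71117804-71118103. Tfrc and Fth1 each have a second annotated start, whose window is not shown, and the window of Ftl1, which has no probe set of its own, is not shown either.
Tfrc: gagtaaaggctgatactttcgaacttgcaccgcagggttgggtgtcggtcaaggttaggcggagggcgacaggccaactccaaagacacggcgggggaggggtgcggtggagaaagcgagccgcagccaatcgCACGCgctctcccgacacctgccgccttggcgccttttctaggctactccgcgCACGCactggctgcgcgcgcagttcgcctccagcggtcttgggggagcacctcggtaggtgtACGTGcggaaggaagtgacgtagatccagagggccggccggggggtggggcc
Fth1: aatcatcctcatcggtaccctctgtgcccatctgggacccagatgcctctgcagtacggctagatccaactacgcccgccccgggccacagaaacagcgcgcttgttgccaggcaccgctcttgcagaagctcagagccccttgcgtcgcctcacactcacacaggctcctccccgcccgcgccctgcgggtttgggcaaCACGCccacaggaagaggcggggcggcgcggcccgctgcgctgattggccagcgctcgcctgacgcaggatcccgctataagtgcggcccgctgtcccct
Cybrd1: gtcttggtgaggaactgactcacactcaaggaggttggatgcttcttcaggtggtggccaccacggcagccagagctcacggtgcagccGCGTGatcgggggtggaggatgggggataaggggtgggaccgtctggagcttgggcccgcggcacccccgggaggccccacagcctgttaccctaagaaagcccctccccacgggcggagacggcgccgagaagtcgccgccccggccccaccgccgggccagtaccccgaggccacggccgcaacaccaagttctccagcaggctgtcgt

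The core stood 3 times in the printed Tfrc window, and once each in those of Fth1 and Cybrd1. Of all 32851 promoter windows 43.8% held it, as did 5 of the 6 windows of the iron genes. These 6 come from 4 genes, and the Tfrc windows overlap and share a match, so they are not separate. The antioxidant response element (TGACNNNGC, either strand), bound by NRF2, was in 0 of the 6 windows and in 12.4% of all windows. The TCF site (CTTTGAT or CTTTGTT, either strand), through which beta-catenin acts, was in 1 of the 6, the Fth1 window that is not shown, and in 9.33% of all. The E-box CACGTG was in 0 of the 6 and in 7.15% of all. A match is a match of letters and does not show that a factor binds.

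None of the 18 iron probe sets passed the test. With limma across all probe sets and Benjamini-Hochberg adjustment, 0 of 18 had an adjusted p under 0.05, and their adjusted p ran from 0.991 to 0.999. The background was the same, with 0 of 45101 probe sets called (0%), although 1876 (4.16%) had an unadjusted p under 0.05. Among the iron probe sets 1 had an unadjusted p under 0.05, a probe set of Slc11a2. Of the 18, 13 lay above 0 and 5 below, against 50.4% of all probe sets above 0, and 9 of the 13 belonged to Tfrc or Slc11a2, so they are not separate genes. Their median log2 difference, knockout minus wild type, was 0.10, against 0.0017 over all probe sets.

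The precision of these values sets what could have been seen. The median size of the log2 difference, with its sign dropped, was 0.12 among the iron probe sets and 0.12 over all probe sets. The 95% interval lay within a 2-fold change in either direction for 17 of the 18 iron probe sets, against 88.8% of all probe sets, and within a 1.5-fold change for 10 of the 18, against 59.8%. For those 10, at least, a change of 1.5-fold falls outside the interval of that probe set taken alone. Groups did not overlap for 1 of the 18, with the knockouts higher, against 4.92% of all probe sets in that direction, 4.78% in the other and 9.71% in both together.

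**Figure D1:**
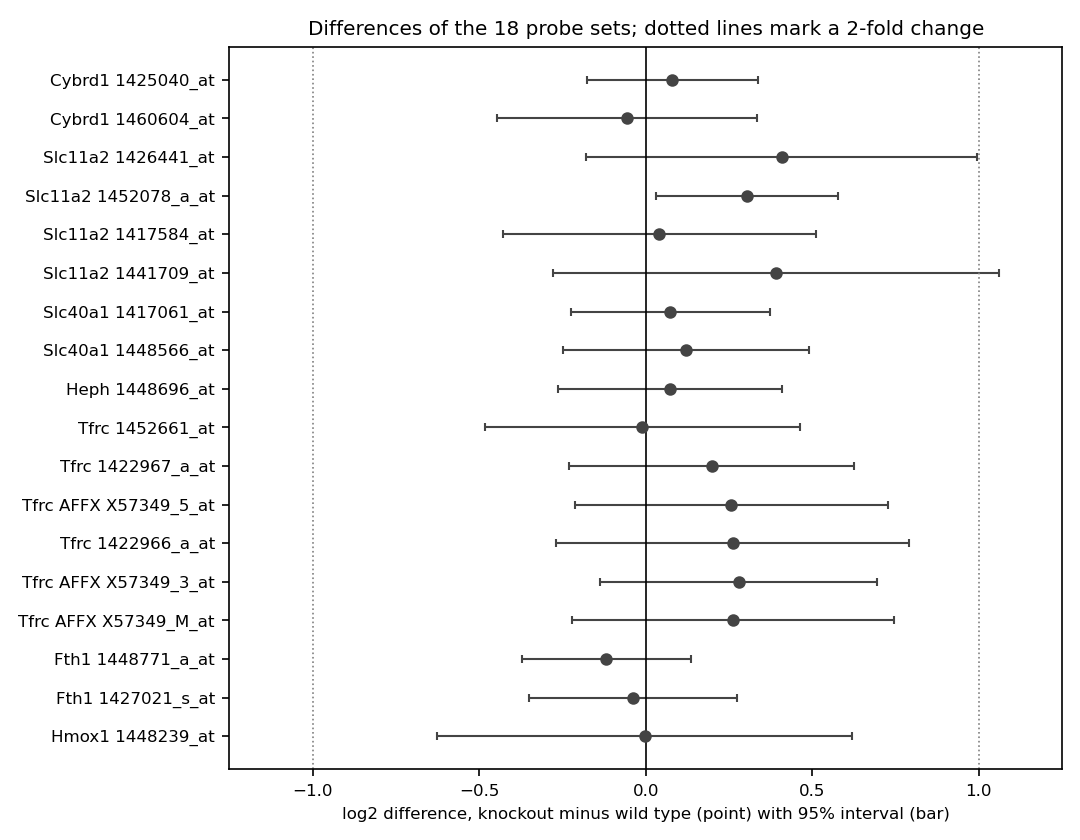
Log2 difference (knockout minus wild type, x axis) of each of the 18 probe sets (y axis, ordered by role), with limma's 95% interval as a bar and dotted lines at a 2-fold change. Points run from -0.12 (Fth1) to 0.41 (Slc11a2), and 1 interval, that of the dim Slc11a2 probe set 1441709_at, crosses a dotted line.

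The cytochrome b reductase Cybrd1 (Dcytb), which reduces dietary ferric iron at the apical membrane, did not pass with either of its probe sets. Probe set 1425040_at read 5.08, 4.90 and 4.98 (log2 expression) in knockout 1, 2 and 3, against 4.92, 4.93 and 4.87 in wild type 4, 5 and 6. The ranges overlap and span 0.21 in all. The difference was 0.08 (SE 0.11, 95% interval -0.18 to 0.34, limma adjusted p = 0.991). Probe set 1460604_at lay between 3.07 and 3.46 in the knockouts and between 3.08 and 3.49 in wild type, a difference of -0.06 (SE 0.16). Array medians lay between 5.44 and 5.58, and no detection call was used, so neither reading is shown to be above background.

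Slc11a2 encodes DMT1, the proton-coupled transporter that brings ferrous iron across the apical membrane. It was the gene with the widest differences among the 7, with all 4 of its probe sets above 0, and none of them passed. Probe set 1426441_at, the brightest, read 8.03, 8.34 and 7.94 in knockout 1, 2 and 3, against 8.19, 7.64 and 7.27 in wild type 4, 5 and 6. Wild type 4 lay among the knockouts, and the other wild-type arrays lay below them. The difference was 0.41 (SE 0.25, 95% interval -0.18 to 1.00, limma adjusted p = 0.991). It rested on single arrays, at 0.19 without wild type 6 and 0.65 without wild type 4 (limma adjusted p = 0.925 and 0.924).

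Probe set 1452078_a_at of Slc11a2 was the one whose groups stood apart. It read 8.15, 8.04 and 7.90 in knockout 1, 2 and 3, against 7.76, 7.69 and 7.73 in wild type 4, 5 and 6. Every knockout lay above every wild-type array. The knockout mean of 8.03 ± 0.12 stood against 7.72 ± 0.04 for wild type (SD over 3 arrays), a difference of 0.30, or 1.24-fold (SE 0.11, 95% interval 0.03 to 0.58, limma unadjusted p = 0.0340, adjusted p = 0.991). A share of 4.16% of all probe sets had an unadjusted p under 0.05, and the 1 of 18 here is close to it.

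The other Slc11a2 probe sets did not follow the same order of arrays. Probe set 1417584_at lay between 7.04 and 7.19 in the knockouts and between 6.79 and 7.50 in wild type, a difference of 0.04 (SE 0.20), with wild type 4 highest and wild type 5 lowest. Probe set 1441709_at, with group means of 4.64 in the knockouts and 4.25 in wild type, differed by 0.39 (SE 0.28), with knockout 3 highest. Over the 6 arrays, which share the platform, the normalization and the 2 genotype groups, the 6 pairs of Slc11a2 probe sets correlated at Pearson r between 0.05 and 0.60. Probe sets of a gene can read different transcripts, and which ones these read was not analysed here.

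Neither export gene passed the test. Slc40a1 encodes ferroportin, the exporter of iron at the basolateral membrane. Its brighter probe set 1417061_at read 10.81, 11.15 and 11.01 in knockout 1, 2 and 3, against 10.90, 10.93 and 10.92 in wild type 4, 5 and 6. The wild-type arrays all lay inside the range of the knockouts. The knockout mean of 10.99 ± 0.17 stood against 10.92 ± 0.01 for wild type (SD over 3 arrays), a difference of 0.07 (SE 0.13, 95% interval -0.23 to 0.37, limma adjusted p = 0.991). Probe set 1448566_at differed by 0.12 (SE 0.16, 95% interval -0.25 to 0.49). Knockout 2 was the highest array for both probe sets, which correlated at r = 0.77 over the 6 arrays.

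Heph encodes hephaestin, the membrane ferroxidase that works with ferroportin. Its probe set read 9.75, 9.95 and 10.08 in knockout 1, 2 and 3, against 9.81, 10.02 and 9.73 in wild type 4, 5 and 6. The groups overlap. The difference was 0.07 (SE 0.14, 95% interval -0.26 to 0.41, limma adjusted p = 0.991).

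Tfrc, the transferrin receptor, is the gene of this group that dividing cells are known to raise. Knockout 3 was the highest array for all 6 Tfrc probe sets, whereas knockout 3 is the highest array for 14.2% of all probe sets. Probe set 1422966_a_at read 10.00, 9.89 and 10.70 in knockout 1, 2 and 3, against 10.01, 9.82 and 9.98 in wild type 4, 5 and 6. The first 2 knockouts lay among the wild-type arrays. The difference was 0.26 (SE 0.22, 95% interval -0.27 to 0.79, limma adjusted p = 0.991), and it was 0.01 without knockout 3.

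Probe set 1452661_at, the brightest for Tfrc, read 11.33, 11.22 and 11.89 in knockout 1, 2 and 3, against 11.35, 11.49 and 11.63 in wild type 4, 5 and 6. Again knockout 3 was highest, and the other knockouts were the lowest arrays. The difference was -0.01 (SE 0.20, 95% interval -0.48 to 0.46), and -0.22 without knockout 3. The other Tfrc probe sets differed by 0.20 to 0.28, and by 0.05 to 0.11 without knockout 3. The probe sets of Tfrc read RNA of 1 gene in the same arrays, so their shared peak in knockout 3 is 1 observation. The 15 pairs correlated at r between 0.65 and 0.99.

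The array also carries Tfrc probe sets for the 5′ end, the middle and the 3′ end of the messenger, which serve as controls of RNA integrity. The log2 value of the 3′ set minus that of the 5′ set was -0.95, -1.06 and -1.02 in knockout 1, 2 and 3, against -0.91, -0.94 and -1.24 in wild type 4, 5 and 6. The knockouts lay inside the wild-type range, and wild type 6 was lowest. In knockout 3 the 3′, middle and 5′ sets were all the highest of the 6 arrays.

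A list of 20 cell cycle genes, 19 of them measured, was also highest in knockout 3. Its level, the median over genes of the log2 deviation from each gene's 6-array mean, was 0.12, -0.16 and 0.37 in knockout 1, 2 and 3, against -0.13, -0.13 and -0.07 in wild type 4, 5 and 6. The mean deviation of the Tfrc probe sets was -0.06, -0.11 and 0.49 in the knockouts, against -0.08, -0.25 and 0.02 in wild type. Knockout 3 was highest in both, and the part of the cell cycle genes in the Tfrc readings was not tested. Of the cell cycle genes, 14 lay above 0 and 5 below, with 0 passing, where 52.2% of all genes lay above 0.

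**Figure D2:**
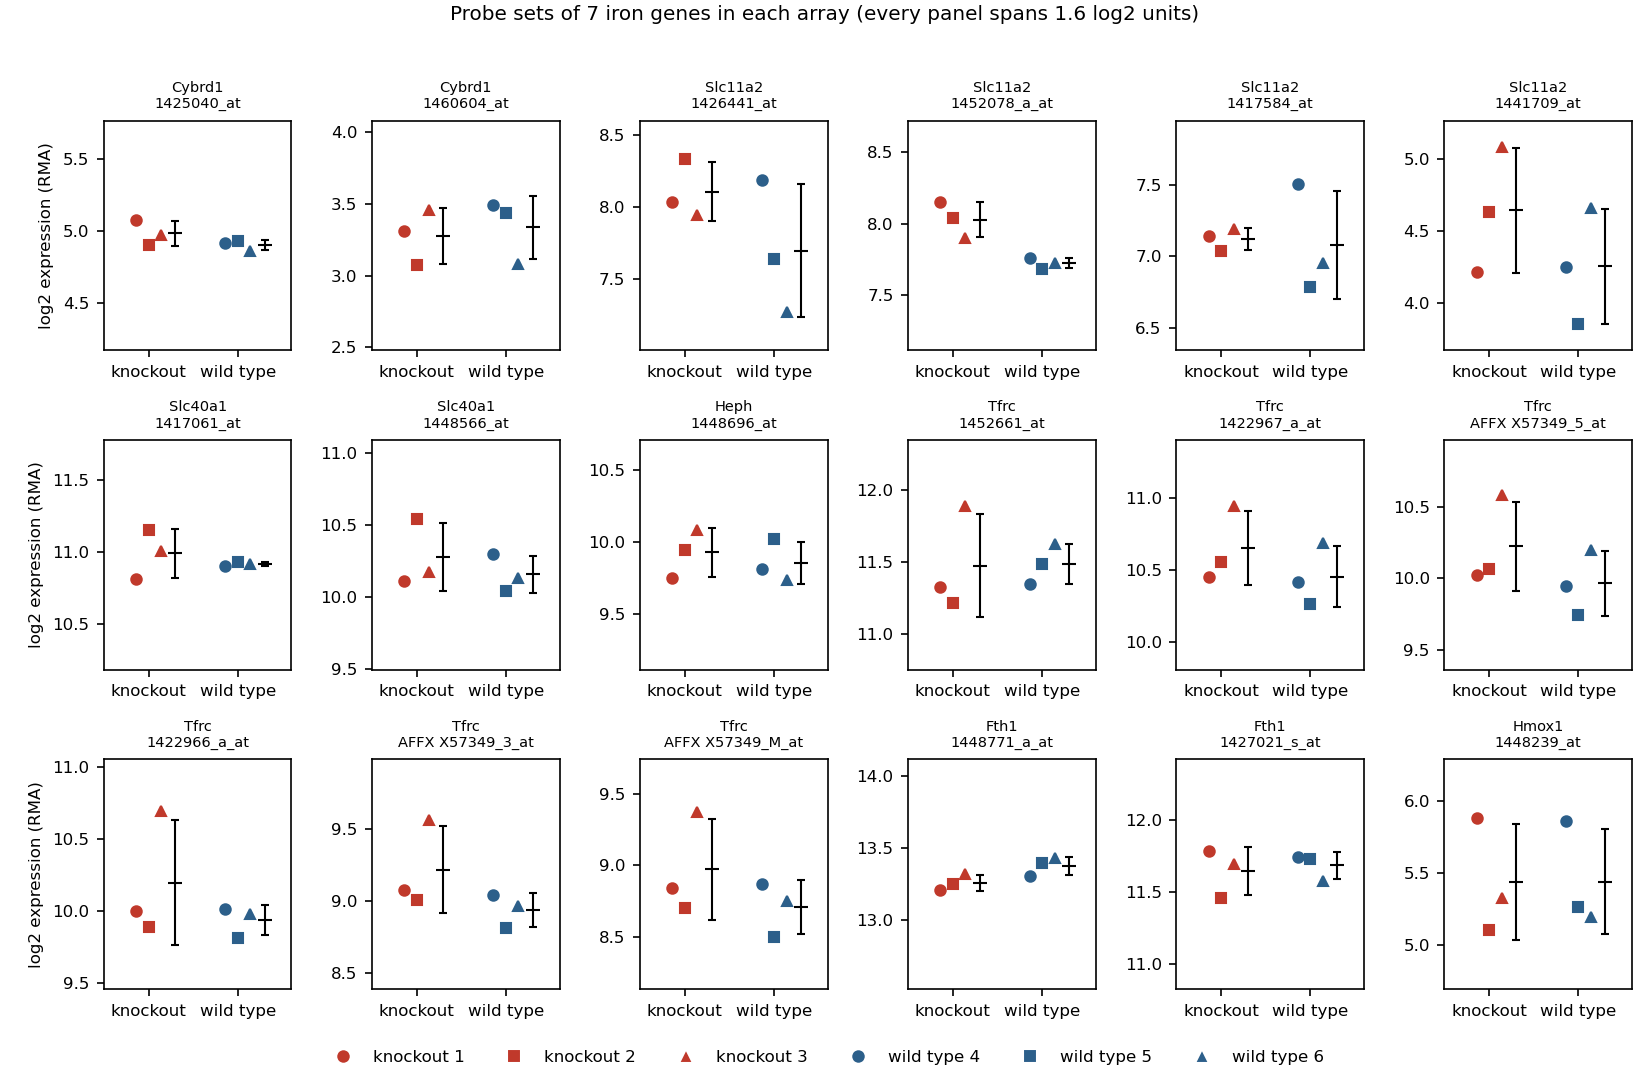
Log2 expression (RMA, y axis) of the 18 probe sets in the 3 knockout arrays (left, red) and the 3 wild-type arrays (right, blue), with the group mean and SD in black; every panel spans the same number of log2 units. Knockout 3 (red triangle) is the highest point in all 6 Tfrc panels, and the groups are apart in the panel of Slc11a2 1452078_a_at.

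Ferritin heavy chain, encoded by Fth1, carries the ferroxidase activity of the storage shell. Probe set 1448771_a_at read 13.21, 13.25 and 13.32 in knockout 1, 2 and 3, against 13.30, 13.40 and 13.43 in wild type 4, 5 and 6. Knockout 3 lay just above wild type 4, and the other knockouts lay below every wild-type array. The knockout mean of 13.26 ± 0.06 stood against 13.38 ± 0.06 for wild type (SD over 3 arrays), a difference of -0.12 (SE 0.11, 95% interval -0.37 to 0.14, limma adjusted p = 0.991). The highest value of any probe set in the table was 14.4. Probe set 1427021_s_at lay between 11.46 and 11.79 in the knockouts and between 11.58 and 11.74 in wild type, a difference of -0.04 (SE 0.13), and the pair correlated at r = -0.09 over the 6 arrays.

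Hmox1, heme oxygenase 1, had group means that nearly coincided and a wide spread within each group. Its probe set read 5.88, 5.10 and 5.33 in knockout 1, 2 and 3, against 5.87, 5.26 and 5.20 in wild type 4, 5 and 6. Each genotype had 1 high array and 2 lower ones. The difference was -0.003 (SE 0.26, 95% interval -0.63 to 0.62, limma adjusted p = 0.999). These values lie around the array medians.

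The members were highest in different arrays. Mean deviations over a gene's probe sets were highest in knockout 3 for Tfrc (0.49), Slc11a2 (0.20), Heph (0.19) and Cybrd1 (0.09), in knockout 2 for Slc40a1 (0.26), in knockout 1 for Hmox1 (0.44) and in wild type 5 for Fth1 (0.07). Such a mean can peak where its single probe sets do not. Those of Cybrd1 were highest in knockout 1 and wild type 4, and those of Fth1 in wild type 6 and knockout 1. Of the Slc11a2 probe sets only the dim 1441709_at was highest in knockout 3. Wild type 6 stood apart in the markers of other cells: the level of the B and plasma cell list (14 of 17 measured) was 2.04 there, against -0.67 to -0.02 in the other 5 arrays. The iron genes had mean deviations of -0.24 to 0.02 in wild type 6, and the part of those cells in them was not tested. Epithelial genes (14 of 14 measured, among them Epcam, Cdh1 and Krt8) had levels between -0.05 and 0.03 in the knockouts and between -0.0046 and 0.01 in wild type.

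**Figure D3:**
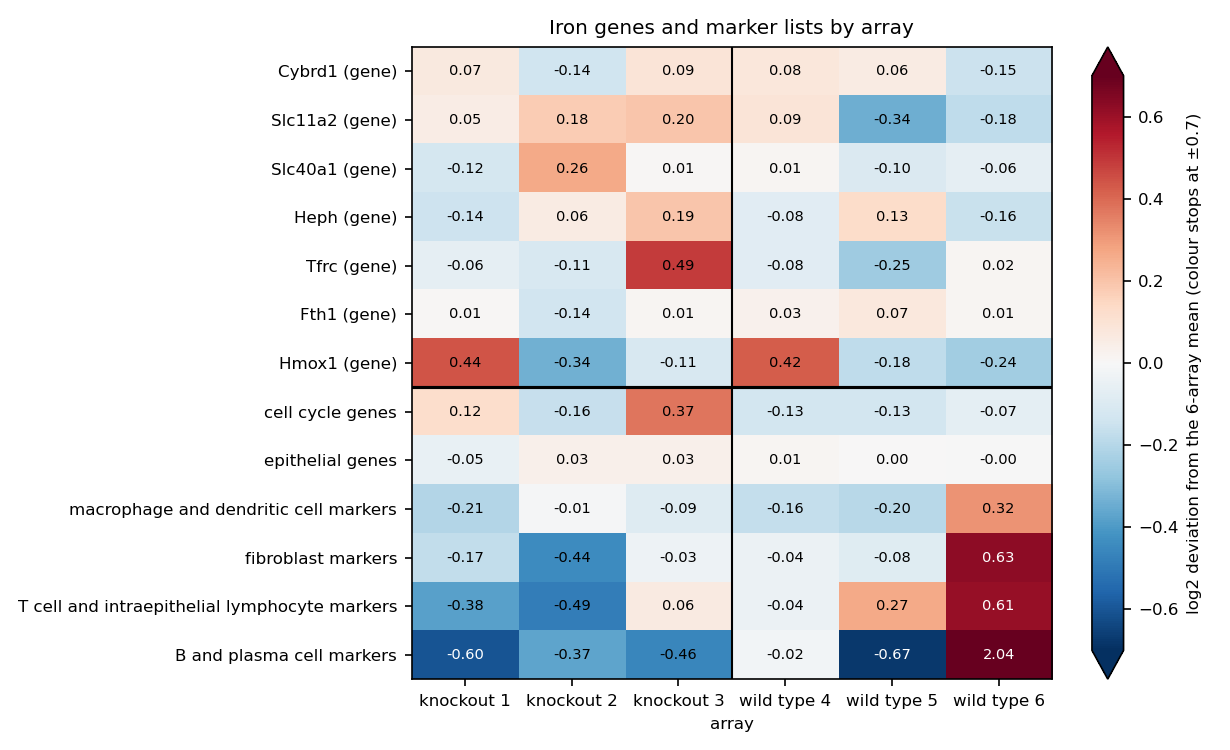
Mean log2 deviation from the 6-array mean of each iron gene (above the black line) and level of 6 marker lists (below it), by array (x axis), with the value in each cell and the colour scale at the right. Tfrc and the cell cycle genes are both highest in knockout 3 (0.49 and 0.37), and the B and plasma cell list reaches 2.04 in wild type 6.

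By a fixed rule, genes with a similar course were sought for the member whose brightest probe set ranged most widely, Slc11a2 (1.07 over the 6 arrays). Among 9096 genes brighter than the median gene, those with the highest Pearson correlation to it were Lrp4 (r = 0.99), AI854703 (r = 0.99) and Tfb2m (r = 0.98). Over 6 arrays 147 of these 9096 genes exceeded r = 0.9, so a high correlation is not particular to the genes named. All of them share the arrays and their normalization with Slc11a2.

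The wider iron pathway was read with 1 probe set per gene, the one with the highest mean. Of 69 other genes listed for iron control, transport and storage, heme, and iron-sulfur clusters, 63 were measured and 0 passed in either direction (limma, smallest adjusted p = 0.953), against 0% of all 18194 genes. At an unadjusted p under 0.05 there were 2, which is 1 higher (Hpx) and 1 lower (Cd163), where 4.71% of all genes had such a p. Their median log2 difference was 0.03, with 38 above 0 and 25 below, against a median of 0.0096 over all genes, of which 52.2% lay above 0. Groups did not overlap for 5 of the 63, 3 higher and 2 lower, against 10.3% of all genes.

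Among the 13 measured iron regulators, none of the sensors and switches of the pathway passed. Ireb2, which encodes iron regulatory protein 2, differed by 0.01 (SE 0.18). Aco1, which encodes iron regulatory protein 1, differed by -0.09 (SE 0.23) with its brightest probe set, one of the cross-reacting _x_at kind. Its other probe sets lay above 0, at 0.30 (SE 0.13) and 0.36 (SE 0.24), and did not pass. The first of these read 9.83, 9.65 and 9.67 in knockout 1, 2 and 3, against 9.49, 9.55 and 9.22 in wild type 4, 5 and 6. Every knockout lay above every wild-type array there, as for 4.92% of all probe sets. The second was dim, with group means of 4.23 and 3.88. Fbxl5, the ligase subunit that removes iron regulatory proteins when iron is ample, differed by -0.07 (SE 0.19), and Ncoa4, the receptor that sends ferritin for breakdown, by -0.02 (SE 0.11).

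Genes of systemic and oxygen control did not pass either. Hif1a, an oxygen-sensing factor, differed by 0.35 (SE 0.25) with overlapping groups, and its other probe sets by 0.30, 0.28 and -0.18. For the first 2 of these every knockout lay above every wild-type array, as for 4.92% of all probe sets. Epas1, which encodes HIF-2 alpha, the driver of iron uptake genes in the mouse duodenum, differed by 0.03 (SE 0.21). Hfe differed by 0.24 (SE 0.18), with its other probe set at -0.18. Bmp6, which induces hepcidin, differed by -0.34 (SE 0.19). It was dim, at 3.51 in the knockouts and 3.85 in wild type, well under the array medians. Tfr2, Tmprss6 and Neo1 differed by 0.02, 0.01 and -0.02.

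Hepcidin is the hormone that removes ferroportin from the membrane, and mice have a pair of near-identical genes for it, so probe sets of the cross-reacting _x_at kind, which stand for both genes here by the rule of the highest mean, may read each other's messenger. The Hamp probe set of this kind read 7.86, 7.50 and 6.30 in knockout 1, 2 and 3, against 8.26, 7.32 and 7.26 in wild type 4, 5 and 6. That of Hamp2 read 7.95, 8.16 and 6.41 in the knockouts, against 8.99, 8.63 and 7.18 in wild type. Knockout 3 was lowest for both, and the groups overlap. The differences were -0.39 (SE 0.45) for Hamp and -0.76 (SE 0.60, 95% interval -2.19 to 0.67, limma adjusted p = 0.967) for Hamp2. Each gene has another probe set, not of that kind. The one for Hamp was also lowest in knockout 3 and differed by -0.49 (SE 0.57). The one for Hamp2 read 3.79, 4.20 and 4.09 in the knockouts, against 4.38, 4.20 and 4.39 in wild type, so knockout 1 was lowest there (difference -0.30, SE 0.14).

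The 24 other transport and storage genes measured showed a median difference of 0.08. Of them 17 lay above 0 and 7 below, where 52.2% of all genes lay above 0. At the upper end stood Steap4, a metalloreductase, which read 9.59, 10.50 and 10.18 in knockout 1, 2 and 3, against 9.50, 8.62 and 9.88 in wild type 4, 5 and 6. Knockout 1 lay below wild type 6, so the groups overlap. The difference was 0.76 (SE 0.36, 95% interval -0.10 to 1.62, limma adjusted p = 0.953), and its other probe set gave 0.70. At the lower end stood Slc11a1, the iron transporter of phagocytes, at -0.25 (SE 0.17). It was dim, with 3.81 in the knockouts and 4.06 in wild type, well under the array medians.

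The 15 heme genes measured had a median of 0.08. Cd163, the macrophage receptor for haemoglobin, read 3.20, 3.66 and 3.67 in knockout 1, 2 and 3, against 3.94, 4.11 and 4.04 in wild type 4, 5 and 6. The groups are apart but well under the array medians, and the difference was -0.52 (SE 0.16, limma adjusted p = 0.953). Hpx, which encodes the heme carrier hemopexin, was as dim, at 3.19 in the knockouts and 2.93 in wild type, a difference of 0.26 (SE 0.10). The level of the macrophage and dendritic cell list (18 of 20 measured) lay between -0.21 and -0.01 in the knockouts and between -0.20 and 0.32 in wild type, and its part in Cd163 was not tested.

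Alas2, the erythroid enzyme that starts heme synthesis, read 4.46, 4.97 and 4.65 in knockout 1, 2 and 3, against 4.32, 4.92 and 7.05 in wild type 4, 5 and 6. Wild type 6 alone was high. The haemoglobin gene Hbb-b2 read 7.19, 7.17 and 7.65 in the knockouts, against 7.56, 7.93 and 10.85 in wild type, with wild type 6 again high. Hba-a2 ranged over only 0.13 in the 6 arrays, with a difference of 0.07 (SE 0.10). It lay between 11.07 and 11.13 in the knockouts and at most at 11.06 in wild type. Such groups without overlap are found for 10.3% of all genes. Of 14 red cell markers 8 were measured, and 2 of them lay above 0 and 6 below, where 52.2% of all genes lay above 0. The level of that list was -0.10, -0.11 and -0.10 in knockout 1, 2 and 3, against 0.02, 0.02 and 0.04 in wild type 4, 5 and 6. This level is a median over genes, and only 3 of the 8 had a mean above the array medians. It can therefore miss a rise in few genes, such as that of Alas2 and Hbb-b2 in wild type 6. Tfrc, which red cell precursors carry, had a mean deviation of 0.02 in wild type 6, against -0.08 and -0.25 in wild type 4 and 5. In knockout 1, 2 and 3 it was -0.06, -0.11 and 0.49. The part of blood in the iron gene readings of wild type 6 was not tested.

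Iron-sulfur cluster assembly genes (11 of 14 measured) had a median of 0.07 and ran from -0.11 for Lyrm4 to 0.22 for Hscb. The stress pathways that induce Hmox1 and the ferritins, and those that raise Tfrc, had 0 genes passing. The 18 NRF2 targets measured (of 20) had a median of 0.06 with 0 passing; 2 were higher and 1 lower at an unadjusted p under 0.05, where 4.71% of all genes had such a p. The 2 higher were Gpx2 (0.43, SE 0.14) and Abcc1 (0.40, SE 0.16). Me1 had the highest difference (0.75, SE 0.52, limma unadjusted p = 0.194). In the fit over all probe sets its other probe set differed by 1.00 (SE 0.35, limma unadjusted p = 0.0248, adjusted p = 0.991), with overlapping groups. There 4.16% of all probe sets had an unadjusted p under 0.05. The lowest was Gsta4, a glutathione transferase, which read 10.05, 10.10 and 9.77 in knockout 1, 2 and 3, against 10.83, 10.67 and 10.24 in wild type 4, 5 and 6 (-0.61, SE 0.18). The 15 HIF targets had a median of 0.09 with 0 passing and 1 higher (Pdk1) at an unadjusted p under 0.05. They ran from -0.31 for Vegfa to 0.53 for Pdk1, a kinase that holds back pyruvate oxidation (SE 0.20). The groups do not overlap for that Pdk1 probe set, as for 10.3% of all genes. Its other probe sets differed by 0.49, 0.32 and -0.15.

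**Figure D4:**
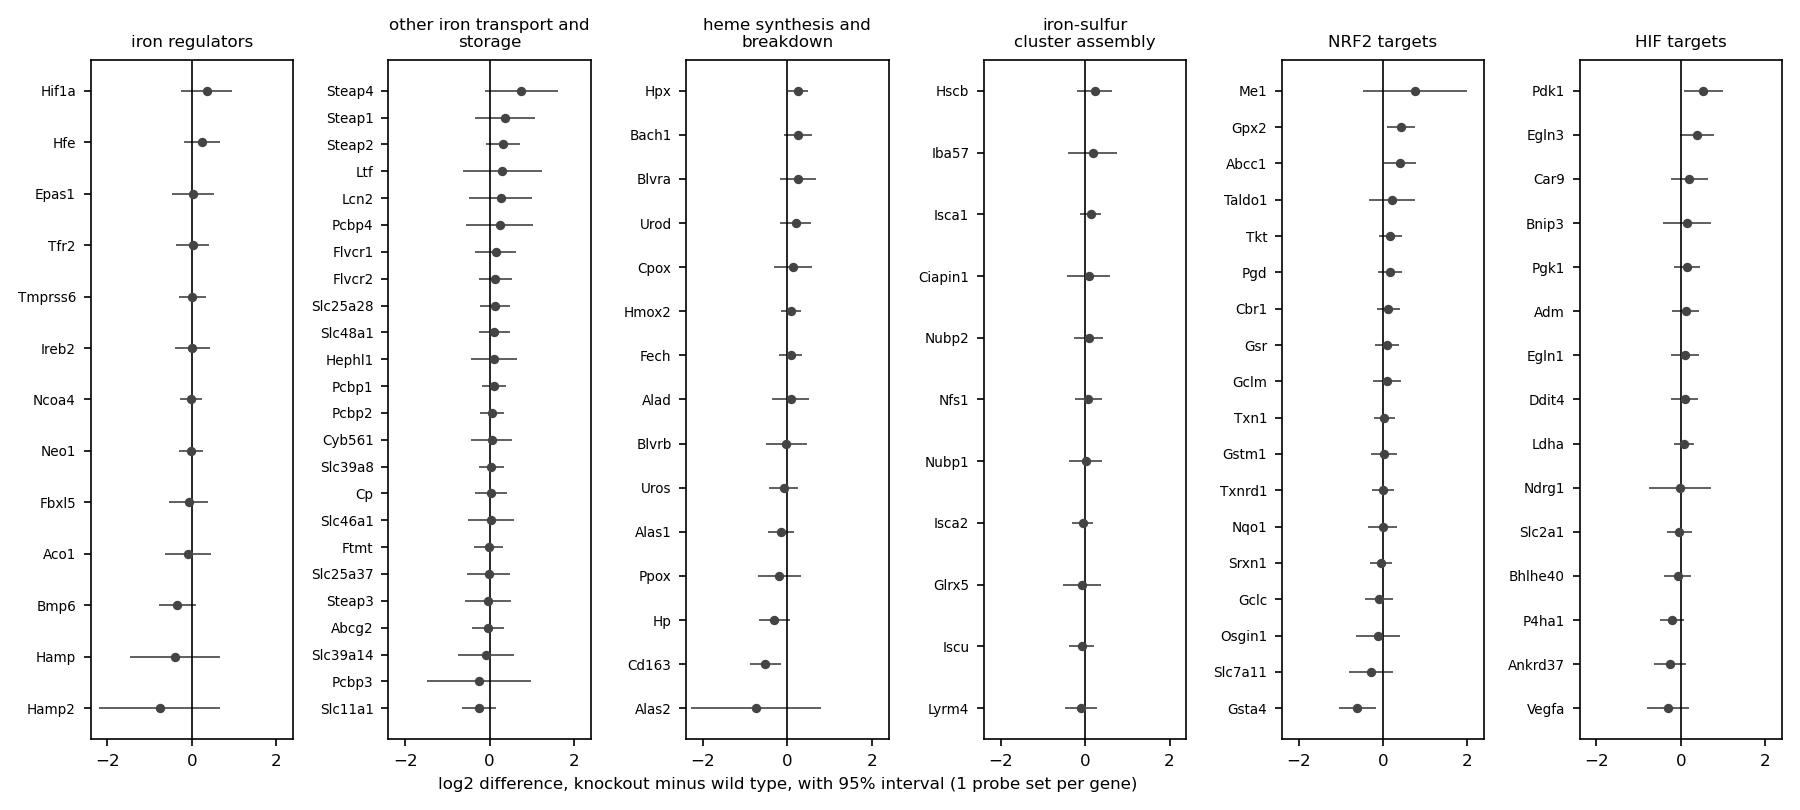
Log2 difference (knockout minus wild type, x axis) with limma's 95% interval for each measured gene of the iron, heme, iron-sulfur, NRF2 and HIF lists (y axis, 1 probe set per gene, sorted within each list). No gene passed the test; the intervals of Alas2 and Hamp2 reach below -2.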

How the data were processed

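The values deposited by the authors are log2 expression values from RMA, a method that corrects background, sets the arrays to equal quantiles and sums up the probes of a set; RMA is named, without a version, per the labels (the submitters' processing notes). Per the labels' protocols, 30 ng of RNA pooled from several mice went through NuGEN WT-Ovation pico amplification, which can read low transcripts unevenly. Detection calls and scan dates were not used here, and arrays have no read depth, so their number limits the precision. Each array is a separate pool, and p-values measure the spread between pools.

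Of 45101 probe sets, 34958 had 1 gene symbol, 932 several and 9211 none; 34754 of the first matched RefSeq of GRCm38.p6 by gene number. The genotypes were compared by limma (version 3.58.1, R 4.3.3; lmFit and eBayes, two-sided, threshold 0.05 after Benjamini-Hochberg adjustment), once over all probe sets and once over 18194 genes, each by its probe set with the highest mean. The code was tested on simulated data. Alternatives covered loess, brighter probe sets, averaged probe sets, probe set type, variance model, array weights, pool size, B cell level and each array left out. Genes named were the members, the iron regulators, the extremes of each other list and the most similar genes. Others named (Cd163, Hbb-b2, Hba-a2, Gpx2 and Abcc1) were chosen after their values were seen. Members and lists were chosen with earlier results of these data known.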

Additional observations from a re-analysis of the deposited data

How the results depend on the processing

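None of the iron probe sets was called under any of the 15 alternatives, where an alternative kept it (smallest adjusted p = 0.75), nor was any of the other iron genes. Over all 45101 probe sets limma called 1 with the B and plasma cell level as a covariate and 0 to 3 when single arrays were left out, the 3 without wild type 6. Of 239 recomputed differences 211 kept their direction and 28 turned, in 10 probe sets. The 211 include settings that cannot move a difference, so they do not measure stability. These are the variance model and the fits that only drop other probe sets or keep the brightest of a gene. With pool size as a covariate, which varies among the knockouts alone and so leaves knockout 1 as the array compared, the difference turned to -0.037 for Slc11a2 1441709_at, -0.11 and -0.045 for Slc40a1, -0.11 for Heph, -0.0020 for Tfrc 1422967_a_at, 0.10 for Fth1 1427021_s_at and 0.44 for Hmox1. Loess gave -0.024 for Slc11a2 1417584_at and 0.0077 for Hmox1, array weights -0.022 for that Slc11a2 probe set and 0.11 for Tfrc 1452661_at, the B and plasma cell level -0.0031 for Heph and 0.056 for Tfrc 1452661_at, and the mean of its probe sets 0.21 for Tfrc. With single arrays left out the values ran from -0.18 to 0.047 for Cybrd1 1460604_at, -0.11 to 0.25 for Slc11a2 1417584_at, -0.0070 to 0.16 and -0.013 to 0.20 for Slc40a1, -0.0072 to 0.16 for Heph, -0.22 to 0.12 for Tfrc 1452661_at, -0.11 to 0.055 for Fth1 1427021_s_at and -0.23 to 0.21 for Hmox1. The cause was not tested. No paired analysis was possible because the groups share no replicate number. An exact permutation test of 3 against 3 arrays cannot give a p below 0.1.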

Other observations

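The 3 probe sets whose annotation lists Ftl1, the ferritin light chain, together with other symbols lie outside the rule and cannot be assigned to a single gene. A probe set annotated to both Ftl1 and the pseudogene Ftl1-ps2, 1422302_s_at, read 11.97, 11.96 and 12.02 in knockout 1, 2 and 3, against 11.78, 11.66 and 11.81 in wild type 4, 5 and 6. Every knockout lay above every wild-type array, and the difference was 0.24 (SE 0.11, 95% interval -0.01 to 0.49, limma adjusted p = 0.991). The other probe set with these symbols, 1418364_a_at, read 11.62, 11.65 and 11.69 in the knockouts, against 11.54, 11.45 and 11.54 in wild type, also without overlap, a difference of 0.14 (SE 0.10). The groups do not overlap for 9.71% of all probe sets. The Fth1 probe sets lay on the other side of 0, at -0.12 and -0.04. The third, 1422301_at, which lists microRNA genes as well, differed by 0.06 (SE 0.15). None of the 3 passed.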
